A study of Mus musculus with 5 samples.

Results

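The data here are the UMI counts of 8 glutathione S-transferase genes, out of 11733 genes in the deposited matrix, in oligodendrocyte (OL) lineage cells of the P60 mouse corpus callosum. The 8 rows were chosen by name, with earlier results in view: Gstp1 and Mgst3 were selected on their differing levels in the 2 libraries, in opposite directions, so that contrast is a description here. Tissue of 2 healthy mice was pooled, and the cells were sorted by reporter. The mice, of mixed CBA and C57BL/6 background, carried Emx1::Cre in hemizygosity with the reporter Sox10::Cre-LoxP-GFP-STOP-TdTom, which turns from GFP to TdTom in OL lineage cells where Cre has acted. TdTom+ cells thus stand for the dorsal, Emx1-expressing forebrain and GFP+ cells for ventral domains, and both groups carry the same alleles and received no treatment. The TdTom+ library held 1901 cells and 7129294 UMIs, a median of 3340 in each cell. In the GFP+ library there were 952 cells and 3584940 UMIs, a median of 3307. There was 1 library per origin, so no test was made, and all intervals are 95% and cover counting error only. The origin cannot be told apart from any other difference between the 2 libraries.

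Glutathione S-transferases join the tripeptide glutathione to electrophiles, among them the reactive aldehydes that form when membrane lipids are oxidised. The cytosolic enzymes fall into classes, of which pi (Gstp1), mu (Gstm1, Gstm5, Gstm7), alpha (Gsta4) and omega (Gsto1) are treated here, and a separate family of membrane proteins includes Mgst1 and Mgst3. OL lineage cells make large amounts of lipid-rich membrane and hold much iron, and the pi class enzyme has long been used as an antibody marker of mature oligodendrocytes. Many transferase genes are targets of NRF2, a transcription factor that binds antioxidant response elements.

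The cells carry 12 labels given by the authors, from oligodendrocyte precursors (OPC) and committed or newly formed cells (COP/NFOL) through myelin-forming cells (MFOL) to 8 labels of mature oligodendrocytes (MOL). In the text, MOL2 pools MOL2/MFOL, MOL2a, MOL2b and MOL2/4 (1019 cells), and MOL5/6 pools MOL4-5/6, MOL6a and MOL6b (1231 cells). Lists of known markers were highest where the names place them: OPC markers reached 10750 counts per 1000000 UMIs (CPM) in OPC, MOL1 markers 3184 CPM in MOL1, MOL2 markers 2801 CPM in MOL2/4 and MOL5/6 markers 29962 CPM in MOL6a. The labels came from clustering these same cells, so levels over the labels are given without a test. Of other cell types, 10 of 11 astrocyte markers are rows of the matrix and summed to 245 CPM (TdTom+) and 250 CPM (GFP+), with none at 0, and ranged from 124 to 1770 CPM (OPC) over the labels. One TdTom+ cell labelled MFOL2 held 84 microglial UMIs and no UMI of any of the 8 genes. The 4 neuronal markers in the matrix summed to 22.2 CPM (TdTom+) and 37.7 CPM (GFP+) and reached 998 CPM in OPC, with up to 12 UMIs in 1 cell. No cell held 3 of these 4, or 3 of the 5 endothelial markers. Of the pericyte, ependymal and red blood cell markers only 1, 1 and 2 are rows, too few for that count. Of all cell barcodes, 1 was shared by both libraries.

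The 8 genes lie at 6 places in the genome (build GRCm38, GENCODE vM21). Gstp1 spans chr19:4035407-4037985 on the minus strand, next to its copy Gstp2 at chr19:4040285-4046023, and Gsto1 spans chr19:47854970-47864790. The 3 mu class genes lie within 122153 bases of chromosome 3, Gstm5 at chr3:107895821-107898686, Gstm7 at chr3:107926334-107931817 and Gstm1 at chr3:108012255-108017973. Mgst3 spans chr1:167371966-167393841, Mgst1 chr6:138140316-138156755 and Gsta4 chr9:78182774-78209349. Because 3′ libraries read the ends of transcripts, the last 400 bases of each longest coding transcript were compared with all others in windows of 100 bases. Of the 301 windows of Gstp1, 270 (89.7%) also occur in Gstp2 or the pseudogene Gstp-ps, while none of the windows of the other 7 genes is shared. Gstp1 counts are therefore uncertain as to which of these copies was read. Gstp2 had 28 and 9 UMIs in the 2 libraries, 0.710% of the sum of both genes. That sum had a log2 ratio of 0.67 (0.58 to 0.76) between the libraries, the same as Gstp1 alone. So small a share could hardly move the ratio, so the sum does not resolve which copy was read.

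The bases before the start sites of 3 genes are shown because these genes have the 3 patterns described below: Gstp1 was highest in MOL5/6, Mgst3 was highest in MOL2/4 and low in MOL5/6, and Gstm5 was highest in MOL2/4 but also present in OPC. Each is 250 bases, 5′ to 3′ along the gene's strand and ending just before the RefSeq start site (GRCm38.p6). Capitals mark a core of the antioxidant response element, TGACNNNGC or TGAGNNNGC, or a GC box, GGGCGG, on either strand.
Gstp1 (chr19:4037913-4038162, minus strand): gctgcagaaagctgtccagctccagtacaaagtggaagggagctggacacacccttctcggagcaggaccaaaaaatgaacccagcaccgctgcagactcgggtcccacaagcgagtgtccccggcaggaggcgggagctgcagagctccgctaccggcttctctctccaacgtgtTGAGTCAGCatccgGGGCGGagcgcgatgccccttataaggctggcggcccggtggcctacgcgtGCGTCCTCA
Mgst3 (chr1:167393842-167394091, minus strand): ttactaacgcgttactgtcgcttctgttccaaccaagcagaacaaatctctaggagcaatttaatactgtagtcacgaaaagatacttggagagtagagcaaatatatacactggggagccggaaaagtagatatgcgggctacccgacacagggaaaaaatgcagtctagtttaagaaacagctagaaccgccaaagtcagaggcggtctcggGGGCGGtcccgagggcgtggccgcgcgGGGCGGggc
Gstm5 (chr3:107895604-107895853, plus strand): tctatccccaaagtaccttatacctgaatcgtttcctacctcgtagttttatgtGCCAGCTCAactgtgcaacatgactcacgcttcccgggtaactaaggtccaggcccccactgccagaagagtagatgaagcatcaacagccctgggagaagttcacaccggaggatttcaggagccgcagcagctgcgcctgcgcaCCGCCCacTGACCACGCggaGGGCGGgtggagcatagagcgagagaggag
Counted back from the start site, Gstp1 has element cores that begin at -74 and -9 and a GC box at -60. Mgst3 has GC boxes at -36 and -9 and no core in this window. Gstm5 has element cores at -196 and -42, with GC boxes on both sides of the latter, at -50 and -30. None of these matches overlaps another. Of 32851 promoter windows of the same length, 23.0% hold at least 1 of the 2 cores and 32.7% hold a GC box. RefSeq start sites were found for 7 of the 8 genes, with Gsta4 not matched.

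Gstp1, the pi class enzyme, was the most abundant of the 8 genes, scarce in early cells and highest in MOL6a. Its level was 56.5 CPM (31.6 to 93.2) in OPC and 43.2 CPM (15.9 to 94.1) in COP/NFOL, and these did not differ beyond counting error. It stood at 577 CPM (536 to 620) in MFOL1 and 431 CPM (348 to 526) in MFOL2. Among mature labels it was 985 CPM (935 to 1036) in MOL6a, 737 CPM (687 to 790) in MOL4-5/6 and 468 CPM (431 to 507) in MOL6b. MOL1 had 488 CPM (436 to 543). The MOL2 labels were the low end of the mature cells, from 415 CPM (376 to 456) in MOL2/MFOL and 285 CPM (253 to 320) in MOL2a to 190 CPM in both MOL2b (171 to 211) and MOL2/4 (149 to 237). In this order, neighbours overlapped from MFOL1 through MOL1, MOL6b and MFOL2 to MOL2/MFOL, between MOL2b and MOL2/4, and between OPC and COP/NFOL.

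The microsomal gene Mgst3, whose product is a membrane transferase with glutathione peroxidase activity, had close to the opposite order among mature cells. MOL2/4 was highest with 242 CPM (196 to 295), followed by MOL2a with 157 CPM (133 to 183), MOL2/MFOL with 129 CPM (108 to 153), MOL2b with 86.5 CPM (73.7 to 101) and MOL1 with 82.2 CPM (62.0 to 107). The MOL5/6 labels had 32.3 CPM (23.8 to 42.8) in MOL6a, 19.3 CPM (12.5 to 28.4) in MOL6b and 16.7 CPM (9.92 to 26.4) in MOL4-5/6. Early cells were low as well, with 41.4 CPM (20.7 to 74.1) in OPC and 8.75 CPM (4.37 to 15.7) in MFOL1. Only MOL2/4 against MOL2a and MOL2/MFOL against MOL2b were neighbours without overlap.

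The 3 mu class genes were all lower in pooled MOL5/6 than in pooled MOL2, but they parted in the early lineage. Gstm5 was highest in MOL2/4 with 663 CPM (586 to 748), then 405 CPM (367 to 446) in MOL2/MFOL, and lowest in MFOL1 with 118 CPM (99.6 to 138). Its class difference did not hold for every label. MOL2b had 230 CPM (209 to 253) and MOL6a the same 230 CPM (206 to 256), with 180 CPM in MOL4-5/6 and 154 CPM in MOL6b. OPC already had 237 CPM (182 to 304) of Gstm5 and COP/NFOL 223 CPM (152 to 317), near the 268 CPM (257 to 279) of all mature cells. Gstm7 also peaked in MOL2/4, at 499 CPM (432 to 573), and was 278 to 286 CPM in MOL2/MFOL and MOL2a and 170 to 186 CPM in the MOL5/6 labels. It had only 7 UMIs in OPC and 1 in COP/NFOL. Gstm1 was flatter, from 204 CPM (177 to 234) in MOL2/MFOL to 108 CPM (90.8 to 127) in MOL6b over the mature labels, and each of the 8 neighbouring pairs from MOL2/MFOL down to MOL6b overlapped. It had 3 UMIs in OPC and 0 in COP/NFOL, an exact upper bound of 26.6 CPM.

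Gsto1, the omega class enzyme, which also reduces dehydroascorbate, ran the other way. It was highest in COP/NFOL with 22 UMIs or 159 CPM (99.4 to 240), followed by OPC with 52.7 CPM (28.8 to 88.5). The COP/NFOL value was 234 CPM (18 UMIs) in TdTom+ and 64.7 CPM (4 UMIs) in GFP+ cells, a log2 ratio of 1.84 (0.25 to 3.88), and 7 of the 19 cells (36.8%) held a UMI. One TdTom+ cell held 11 of the 22 UMIs. Without it COP/NFOL had 86.5 CPM (43.2 to 155), still the highest label, but with an interval that overlaps that of OPC, and the library ratio was 0.72 (-1.25 to 2.95) from 7 and 4 UMIs, an interval that holds 0. Gsto1 ranged from 4.24 CPM in MOL2b to 31.0 CPM in MOL6a over the mature labels. Gsta4, which acts on the lipid aldehyde 4-hydroxynonenal, had 15 of its UMIs in OPC, 56.5 CPM (31.6 to 93.2), and at most 1 UMI in any other label. Mgst1, a transferase of the endoplasmic reticulum and mitochondrial outer membrane, had 2 UMIs in the TdTom+ and 1 in the GFP+ library, at or under the 3 counts that a count of 0 allows. No level or fold is given for it.

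**Figure D1:**
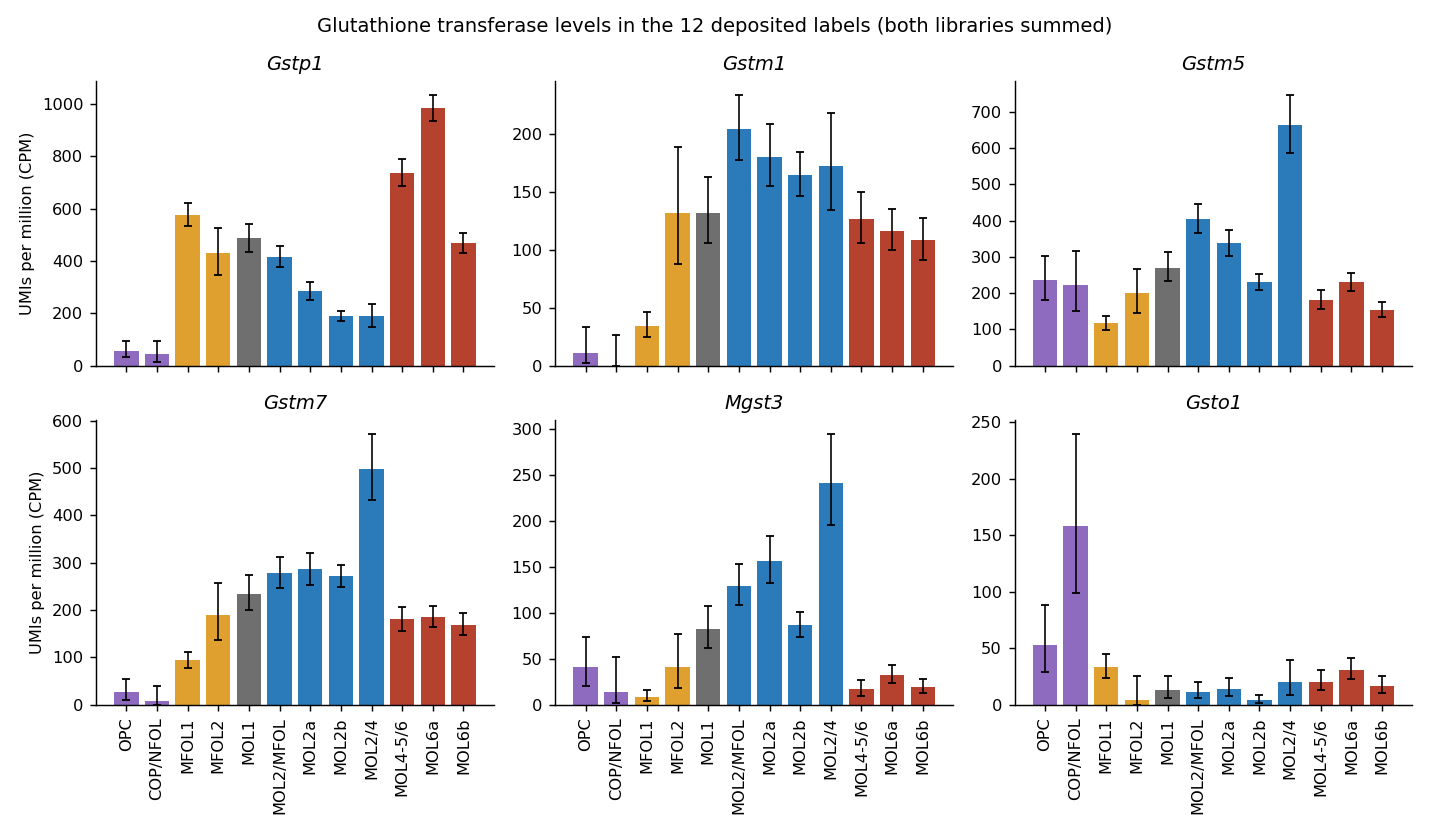
CPM of 6 transferase genes in the 12 labels, both libraries summed, with exact 95% Poisson intervals as error bars and a separate linear axis for each gene. Purple bars are OPC and COP/NFOL, yellow MFOL, grey MOL1, blue MOL2 labels and red MOL5/6 labels, and Gstp1 is highest in red while Gstm5, Gstm7 and Mgst3 peak in the blue MOL2/4 bar.

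Between the mature classes, Gstp1 had 742 CPM in MOL5/6 and 265 CPM in MOL2, a log2 ratio of 1.48 (1.38 to 1.58). Mgst3 had 23.6 CPM in MOL5/6 and 127 CPM in MOL2, a log2 ratio of -2.38 (-2.77 to -2.11), or 5.22-fold lower. The mu class genes lay between, at -0.82 (-0.95 to -0.69) for Gstm5, -0.73 (-0.87 to -0.60) for Gstm7 and -0.61 (-0.79 to -0.44) for Gstm1. For 5 of the 8 genes the mean over the libraries was 50 CPM or more, and of these Gstp1 and Mgst3 passed 2-fold, a size reached by 3.18% of the 2958 genes at that level. Both genes were chosen with earlier results known, and the labels came from clustering these same cells, so nothing is read from that share. Gsto1, below that mean, had 23.3 CPM in MOL5/6 and 9.76 CPM in MOL2. All 5 genes, and 84.7% of the 2958, were at least 2 times higher in their highest label than in their lowest, so that range does not set them apart.

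Mature cells against OPC and COP/NFOL together gave log2 ratios of 3.21 (2.62 to 3.93) for Gstp1, 3.54 (2.62 to 4.82) for Gstm7, 4.14 (2.76 to 6.59) for Gstm1 and 1.26 (0.51 to 2.21) for Mgst3. Gstm5, at 0.20 (-0.09 to 0.52), did not differ beyond counting error. A 2-fold difference in either direction was found for 4 of the 5 genes and for 26.6% of the 2958, and for the same reasons nothing is read from that. The early cells number 102, and they held 3 UMIs of Gstm1, 8 of Gstm7, 13 of Mgst3 and 21 of Gstp1, which is why these intervals are wide.

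The same class differences were present within each library. Gstp1 was higher in MOL5/6 by 1.35 (1.23 to 1.46) on the log2 scale in TdTom+ cells and by 1.77 (1.56 to 1.99) in GFP+ cells. Mgst3 was at -2.27 (-2.76 to -1.91) and -2.47 (-3.07 to -1.99), Gstm5 at -0.75 (-0.91 to -0.59) and -0.92 (-1.15 to -0.70), and Gstm7 at -0.64 (-0.81 to -0.48) and -0.89 (-1.13 to -0.65). Gstm1 was at -0.80 (-1.01 to -0.60) in TdTom+ cells but at -0.22 (-0.53 to 0.08) in GFP+ cells, where the interval holds 0. For Gstp1 and Gstm1 the 2 libraries' intervals do not overlap, and with 1 library each this was not tested.

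**Figure D2:**
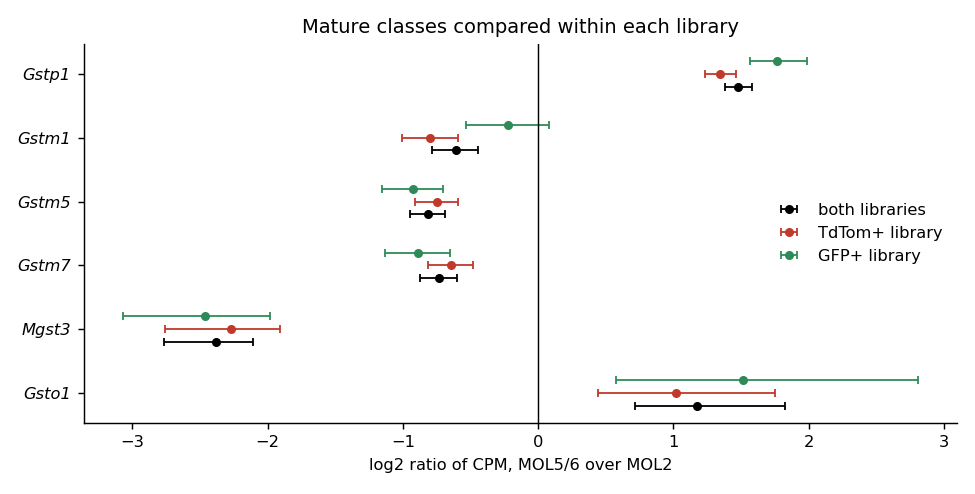
Log2 ratio of CPM, MOL5/6 over MOL2, for 6 transferase genes, with exact 95% counting intervals, for both libraries together (black), the TdTom+ library (red) and the GFP+ library (green). Gstp1 and Gsto1 lie to the right of 0 in each library and Mgst3, Gstm5 and Gstm7 to the left, while the GFP+ interval of Gstm1 reaches 0.08.

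Over the 8 mature labels, Pearson's r of log2(CPM + 1) was 0.94 between Gstm5 and Gstm7, 0.92 between Gstm7 and Mgst3, 0.90 between Gstm5 and Mgst3, -0.74 between Gstp1 and Mgst3 and -0.79 between Gstp1 and Gstm7. With OPC, COP/NFOL and MFOL included (12 labels), these were 0.38, 0.60, 0.89, -0.08 and 0.68, so that the last turned sign. Gstp1 with Gstm1 turned sign too, from -0.66 over 8 labels to 0.73 over 12. Over 8 and 12 labels, Gstm1 had 0.76 and 0.28 with Gstm5, 0.75 and 0.98 with Gstm7, and 0.85 and 0.54 with Mgst3. Gstp1 with Gstm5 had -0.56 and -0.23. These are descriptions over labels that share libraries. Among the 2958 genes, the 3 most like Gstp1 over the 12 labels were Qdpr (r = 0.96), a pteridine reductase that is itself in the MOL5/6 marker list, Erbb2ip (r = 0.96), a scaffold protein, and Desi1 (r = 0.95), a deSUMOylating peptidase. The 3 most like Mgst3 were Tubb3 (r = 0.96), a beta-tubulin, Tmem38b (r = 0.95), an ion channel of the endoplasmic reticulum, and Pmp22 (r = 0.90), a myelin protein. With Spearman's rho 0 of the 3 genes named for Gstp1 and 2 of those for Mgst3 remained, and without OPC and COP/NFOL 0 and 1 remained. Tubb3, for example, had 177 CPM in MOL2/4 and 38.4 CPM in MOL6a.

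Between the libraries, Gstp1 was higher in TdTom+ cells and Mgst3 in GFP+ cells. Gstp1 had 551 CPM (534 to 569) from 3929 UMIs in the TdTom+ library and 347 CPM (328 to 367) from 1244 UMIs in the GFP+ library. That is a log2 ratio, TdTom+ over GFP+, of 0.67 (0.57 to 0.76), or 1.59-fold higher. Mgst3 had 56.7 CPM (51.3 to 62.5) from 404 UMIs and 90.1 CPM (80.5 to 100.5) from 323 UMIs, a log2 ratio of -0.66 (-0.88 to -0.45), or 1.58-fold lower. A log2 ratio of at least 0.5 in either direction was reached by 2 of the 5 genes and by 0.439% (13) of the 2958, and because both were selected on this contrast nothing is read from that. The 2958 ratios had a median of 0.01, and 95% of them lay between -0.25 and 0.25.

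The other transferases differed less between the libraries. Gstm1 had 135 CPM (127 to 144) in TdTom+ and 115 CPM (104 to 127) in GFP+ cells, a log2 ratio of 0.23 (0.07 to 0.40). That direction was not shared by the labels: Gstm1 was higher in TdTom+ cells in 5 of the 8 mature labels, with a ratio of 0.54 (0.19 to 0.90) in MOL2b but -0.56 (-1.09 to -0.03) in MOL4-5/6. Gstm5 had 238 CPM (227 to 250) and 266 CPM (250 to 284), a ratio of -0.16 (-0.28 to -0.04), and Gstm7 had 208 CPM (197 to 219) and 227 CPM (212 to 243), a ratio of -0.13 (-0.25 to -0.0022). All 3 lie within the central 95% of the genes. Gsto1 had 161 and 59 UMIs, 22.6 CPM (19.2 to 26.4) and 16.5 CPM (12.5 to 21.2), and Gsta4 had 10 and 8 UMIs.

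**Figure D3:**
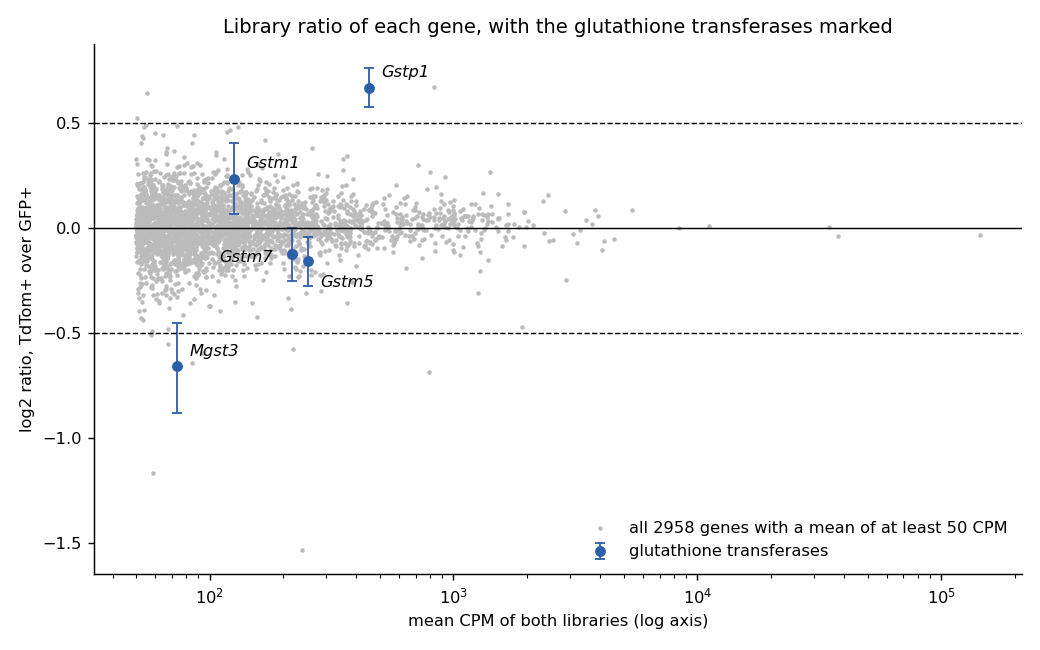
Log2 ratio of each gene, TdTom+ over GFP+, against its mean CPM (log axis), for 2958 genes in grey and the 5 transferases at that level in blue with exact 95% counting intervals. Dashed lines mark 0.5 in each direction, and Gstp1 lies above the upper and Mgst3 below the lower line, with Gstm1, Gstm5 and Gstm7 between.

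Within the labels, Gstp1 was higher in TdTom+ cells in 11 of 12 labels, the exception being COP/NFOL with 2 and 4 UMIs, and in 8 of these the interval left out 0. In MOL6a it had 1097 CPM in TdTom+ and 749 CPM in GFP+ cells, in MOL4-5/6 809 and 535 CPM, and in MOL6b 512 and 373 CPM. Levels were lower in the MOL2 labels, with 456 and 303 CPM in MOL2/MFOL, 331 and 176 CPM in MOL2a, 234 and 124 CPM in MOL2b, and 274 and 119 CPM in MOL2/4, from 50 and 26 UMIs. The log2 ratios ran from 0.28 (-0.08 to 0.65) in MOL1 to 1.19 (0.49 to 1.94) in MOL2/4 over the mature labels, and these 2 intervals overlap. The OPC values were 58.0 CPM (26.5 to 110) and 54.3 CPM (19.9 to 118), a difference not detectable at 9 and 6 UMIs.

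Mgst3 was higher in GFP+ cells in 10 of 12 labels, the 8 mature ones included. The exceptions were OPC, with 45.1 CPM in TdTom+ and 36.2 CPM in GFP+ cells (7 and 4 UMIs), and MFOL1, with 9.71 and 6.93 CPM (8 and 3 UMIs), and in both the interval of the ratio held 0. MOL2/4 had 197 CPM in TdTom+ and 279 CPM in GFP+ cells, MOL2a 140 and 197 CPM, MOL2/MFOL 104 and 198 CPM, and MOL2b 72.7 and 107 CPM. The interval left out 0 in 2 labels, MOL2/MFOL (log2 ratio -0.93, -1.45 to -0.41) and MOL2b (-0.55, -1.02 to -0.09). In the MOL5/6 labels the counts were from 8 to 31 UMIs per library and each interval held 0. Both Gstp1 and Mgst3 kept 1 direction in all 8 mature labels, as did 2.03% of the 2958 genes, and because the UMIs of these labels are the ones that selected both genes nothing is read from that.

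**Figure D4:**
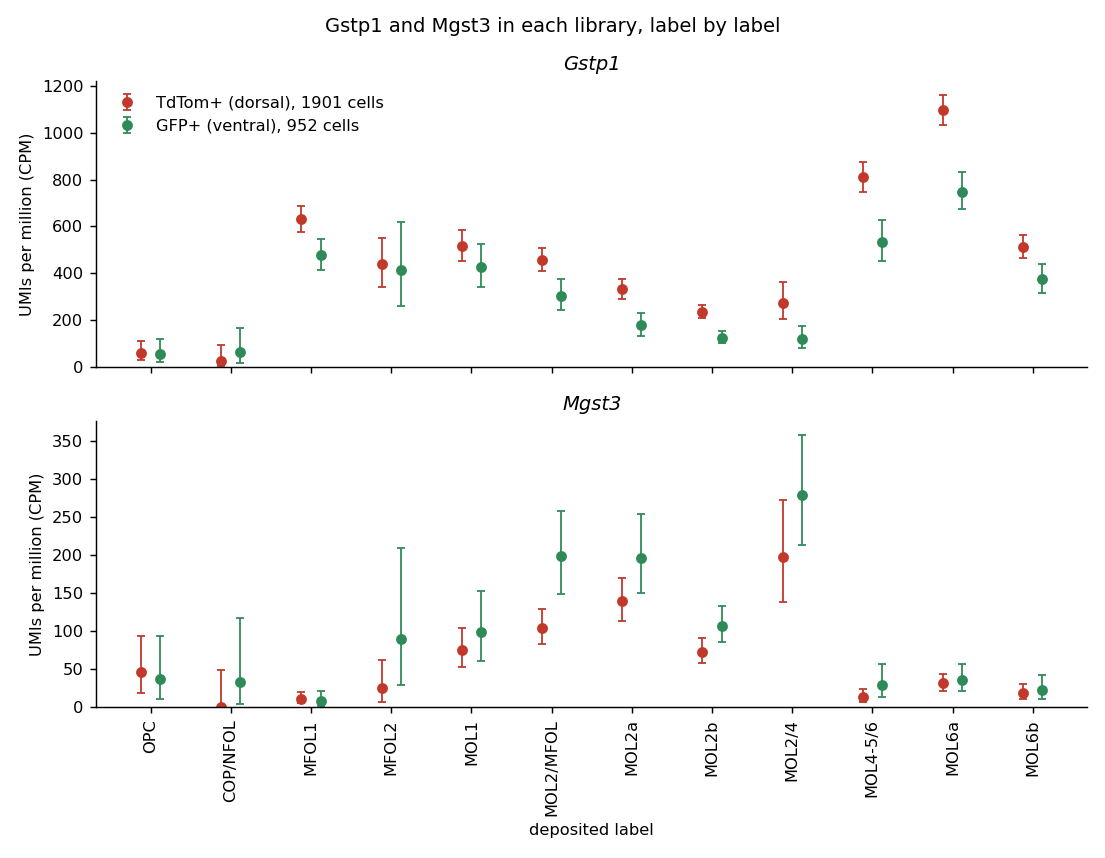
CPM of Gstp1 (top) and Mgst3 (bottom) in each label, TdTom+ library in red and GFP+ library in green, with exact 95% Poisson intervals. Red lies above green for Gstp1 in 11 of 12 labels, and green above red for Mgst3 in all 8 mature labels.

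The libraries also differ in label shares: MOL2/4, low in Gstp1 and high in Mgst3, made up 3.16% of TdTom+ and 6.62% of GFP+ cells. The MOL2 marker list summed to 886 CPM in TdTom+ and 1533 CPM in GFP+ cells, and the OPC list to 277 and 379 CPM. The MOL5/6 list had 16935.5 and 17115.8 CPM. When both libraries were given the same label shares, the ratios were 0.55 for Gstp1, -0.55 for Mgst3, 0.16 for Gstm1, -0.10 for Gstm5 and -0.07 for Gstm7. Over mature cells alone they were 0.71 for Gstp1 and -0.69 for Mgst3.

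Per cell, the whole distribution of Gstp1 was shifted. No UMI was found in 26.7% of TdTom+ and 39.6% of GFP+ cells, and 4 or more in 19.5% and 9.66%. With every cell reduced at random to 2400 UMIs, leaving out 150 shallower TdTom+ and 74 GFP+ cells, Gstp1 was detected in 63.0% (60.7 to 65.3) of TdTom+ and 50.7% (47.3 to 54.0) of GFP+ cells, against 73.3% and 60.4% without thinning. Mgst3 was detected in 9.77% (8.42 to 11.3) and 14.6% (12.3 to 17.1) after thinning, against 15.3% and 21.3% without. Gstm1 was detected in 26.6% (24.5 to 28.7) and 22.2% (19.5 to 25.1), and the intervals of Gstm1, Gstm5 and Gstm7 each overlapped between the libraries. By label, the thinned share of Gstp1 ran from 11.1% (1.38 to 34.7) of 18 COP/NFOL and 14.1% (6.97 to 24.4) of 71 OPC to 84.3% (80.4 to 87.7) of 407 MOL6a cells, at median depths of 8215, 2895 and 3106 UMIs. For Mgst3 it ran from 1.54% (0.42 to 3.91) of 259 MFOL1 to 39.6% (30.3 to 49.6) of 106 MOL2/4 cells, at medians of 3745 and 3043. No label is known to lack these genes, so free RNA was not given a background share.

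**Figure D5:**
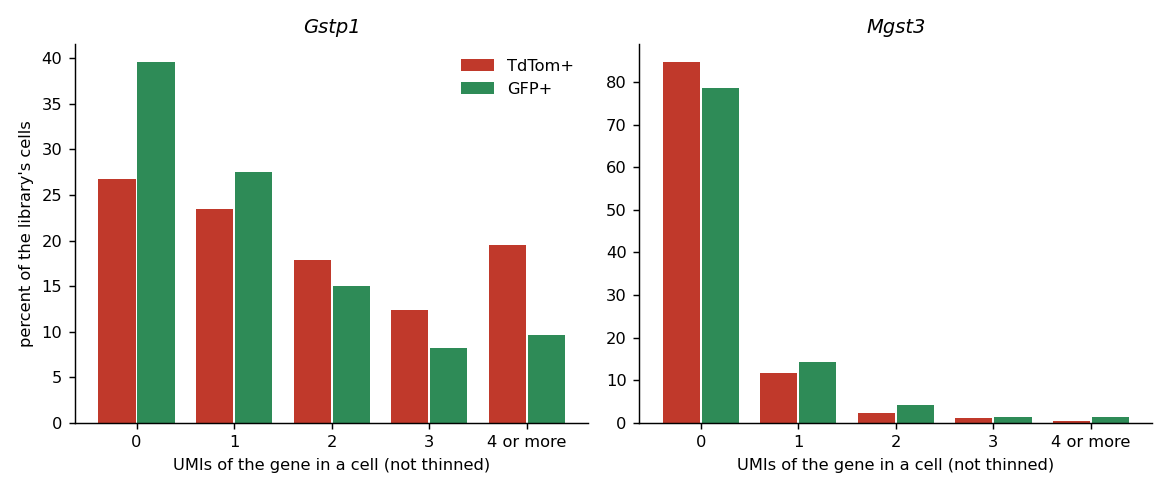
Percent of each library's cells with 0, 1, 2, 3 or at least 4 UMIs of Gstp1 (left) and Mgst3 (right), TdTom+ in red and GFP+ in green, without thinning. GFP+ cells are the larger share at 0 UMIs of Gstp1 (39.6% against 26.7%) and the smaller share at 0 UMIs of Mgst3 (78.7% against 84.7%).

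Within MOL2, Mgst3 was detected in 24.4% (20.7 to 28.5) of thinned cells with Gstm5 and in 15.9% (12.8 to 19.5) of those without it. Gstm7 was found in 54.2% (49.7 to 58.7) of cells with Gstm5 and 45.8% (41.3 to 50.3) of those without, and these intervals overlap. For Gstp1 and Mgst3 the intervals overlapped, Mgst3 being found in 18.4% (14.7 to 22.5) of MOL2 cells with Gstp1 and 21.4% (18.1 to 24.9) of those without. In MOL5/6 the shares of Mgst3 with and without Gstp1 were 5.13% (3.72 to 6.87) and 6.39% (3.77 to 10.0). With and without Gstm5 in MOL5/6, Mgst3 was found in 6.33% (4.14 to 9.20) and 4.93% (3.44 to 6.82) and Gstm7 in 36.5% (31.7 to 41.4) and 34.2% (30.7 to 37.9), all overlapping. The 4 MOL2 labels pooled here differ in the levels of these genes, and the part of that in the shares was not tested.

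Several transferases are also known from astrocytes. The 91 cells with UMIs of 3 or more astrocyte markers, 41 of them labelled OPC and 24 MOL2b, had 159 CPM (120 to 205) of Gstm1, against 128 CPM (121 to 135) in the other 2762 cells. Gstm5 had 276 CPM (225 to 336) and 247 CPM (237 to 256), and for both genes the intervals overlap. Gstm7 was lower in the 91 cells, with 131 CPM (96.8 to 174) against 217 CPM (208 to 226). With 2 or more markers required it had 191 CPM (168 to 217) against 217 CPM (208 to 227), and these intervals overlap. Gstp1 was lower in the 91 cells, with 285 CPM (232 to 345) against 490 CPM (476 to 503), and they held 11 of the UMIs of Gsta4. The OPC label as a whole had 56.5 CPM of Gstp1, 26.4 CPM of Gstm7 and 15 UMIs of Gsta4, and MOL2b had 190 CPM of Gstp1. No comparison was made within a label, and the part of the label mix was not tested. Without the 91 cells the library ratios were 0.67 for Gstp1 and -0.65 for Mgst3.

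The other genes of the pathway were taken from 4 lists. Of 23 other transferases and kin, 13 are rows of the matrix and none reached a mean of 50 CPM, with 25.7 CPM as the highest. Over the 3 other lists, counts past a log2 ratio of 0.5 stand beside the 0.439% of all genes, and nothing is read from a count of 0 in lists of this size. Of the 22 genes of glutathione synthesis and turnover, 8 had a mean of 50 CPM or more and none passed 0.5, with ratios from -0.15 to 0.20. Gclm, the modifier subunit of the rate-limiting ligase, had 100.3 CPM in TdTom+ and 106 CPM in GFP+ cells, and Glo1, which detoxifies methylglyoxal with glutathione, had 322 and 283 CPM. None of 13 peroxidase, thioredoxin and glutaredoxin genes passed, with a median of 0.00 and a range from -0.23 to 0.19. Gpx4, the phospholipid hydroperoxidase, had 920 and 905 CPM, and Prdx1 had 709 and 782 CPM. None of 6 genes of the NRF2 list passed either, from -0.14 to 0.10, with Nfe2l2, which encodes NRF2, at 51.3 and 51.0 CPM. Below 50 CPM, 41 genes of the 4 lists remain, and 7 of them (17.1%) were past 0.5, 1 higher in TdTom+ and 6 in GFP+ cells, beside 14% of the 8775 genes of the matrix below that level. Between MOL5/6 and MOL2, no gene of these lists at 50 CPM or more differed 2-fold, against 3.18% of all genes at that level. Of the 41 below it, 5 (12.2%) did, beside 7.43% of the 8775, and these 5 are named after their values were seen. Higher in MOL5/6 were Gstp2, at 2.30, which shares its 3′ end with Gstp1, and the inducible heme oxygenase gene Hmox1, at 1.49. Higher in MOL2 were the quinone reductase gene Nqo1, at -1.51, the malic enzyme gene Me1, at -1.31, and the omega class gene Gsto2, at -1.05. Over all labels, classes outside this contrast included, they had 37 (Gstp2), 22 (Hmox1), 39 (Nqo1), 268 (Me1) and 95 (Gsto2) UMIs. No intervals were computed for these ratios, and at such levels the pseudocount of 1 CPM shrinks them. At 50 CPM or more, the widest log2 ratios, MOL5/6 over MOL2, were -0.72 for Slc1a3, a glutamate transporter that is also in the astrocyte list, and 0.68 for Sqstm1, the autophagy receptor p62.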

How the data were processed

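UMI counts were measured with 10x Genomics 3′ version 2 libraries, 1 per origin. The submitters' processing notes name Cell Ranger 2.1.1 and mm10, and the methods name STAR and cells kept between 200 and 3000 genes with less than 5% of UMIs mitochondrial. For the STAR version and gene annotation the sources used here give nothing. The deposited signal in the matrix is each gene's fraction of its cell's UMIs, and the deposited count columns (total UMIs and genes per cell) and labels come from a table of cells, whose other 35 columns were not used. Clusters were called by the authors after canonical correlation integration of both libraries.

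Fractions were divided by each cell's smallest value above 0, the worth of 1 UMI, and 100% of the nonzero results were whole to within 0.01. Recovered UMIs were used throughout, in place of the counts that the analysis had been planned for. No count test was run on them, as there is 1 library per origin and no replicate. Of 11733 genes, 81 had 0 UMIs. UMIs were summed per library or label and scaled to 1000000 (CPM). Ratios are log2(CPM + 1), with exact intervals of the ratio conditional on both sums, exact Poisson intervals for levels and Clopper-Pearson intervals for shares, all at 95%. PCR duplicates were removed only as far as UMIs allow. Thinning was without replacement, to 2400 UMIs, near the 10th percentile of depth, with a random seed of 1. Background shares are over the 2958 genes whose mean over both libraries was 50 CPM or more or, where stated, the 8775 below it.

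The genes and lists were chosen with earlier results of these data known. Named are the 8 genes, the 3 genes of highest Pearson's r with Gstp1 and with Mgst3 over the labels, and genes of the 4 pathway lists at 50 CPM or more. The 5 list genes below that level that differed 2-fold between MOL5/6 and MOL2 were named after their values were seen. Gstp2 was named as the copy of Gstp1, and their sum was added after seeing the data. The level and library ratio of Gsto1 without the COP/NFOL cell that held 11 of its UMIs were likewise added after seeing the data. No doublet caller was run here and the methods name none, so the part of doublets in co-detection and in the cells with astrocyte markers was not tested. Ratios and intervals were tried on simulated Poisson counts with known ratios. These hold counting error only, so the trial says nothing on differences between mice or libraries. The 3 spinal cord samples were not analysed here. Alternatives were TMM factors, a pseudocount of 10 CPM, equal label shares, mature cells only, the stated cell limits, leaving out cells with astrocyte markers or the 50 most abundant genes, cell means, filters of 20 and 200 CPM and none, each library alone, 7 merged labels, no thinning, 500 UMIs, at least 2 UMIs, and Spearman's rho. Cells with astrocyte markers were also taken with 2 markers required in place of 3. Software was R 4.3.3 with edgeR 4.0.16 (TMM factors only), and Python 3.11.15 with scipy 1.17.1, numpy 2.4.6, matplotlib 3.10.9 and pandas 2.3.3.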

Additional observations from a re-analysis of the deposited data

How the results depend on the processing

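No paired analysis was possible because each origin has 1 library. The log2 ratio of Gstp1 stayed between 0.55 and 0.71 and that of Mgst3 between -0.69 and -0.55 under 8 alternatives, and the value of Gstp1 at equal label shares, 0.55, left its own counting interval, as that alternative changes the label mix. No other ratio of the 7 genes left its interval. The number of genes at or past a log2 ratio of 0.5 was 55 with a filter of 20 CPM, 5 with 200 CPM and 1238 with none, because the filters change the genes tested. The highest level of Gstp1 was 1097 CPM from TdTom+ cells alone and 749 CPM from GFP+ cells alone, and with 7 merged labels it was 742 CPM, and that of Mgst3 127 CPM, of Gstm5 337 CPM and of Gstm7 298 CPM, the label then being MOL5/6 for Gstp1 and MOL2 for the others. From GFP+ cells alone Gstm1 was highest in MOL2/4, not MOL2/MFOL. The highest level of Gsto1, in COP/NFOL, was 64.7 CPM from GFP+ cells alone and 86.5 CPM without the 1 cell that held 11 of its 22 UMIs, the latter chosen after seeing the data. Shares follow depth. Those of Gstp1 in TdTom+ and GFP+ cells were 73.3% and 60.4% without thinning, 23.2% and 16.1% at 500 UMIs, and 37.3% and 23.2% for at least 2 UMIs. Those of Mgst3 were 15.3% and 21.3%, 2.47% and 3.57%, and 1.37% and 3.19%. Of the 3 genes named as most like Gstp1, 0 remained with Spearman's rho and 0 without OPC and COP/NFOL, and of those for Mgst3, 2 remained with Spearman's rho and 1 without OPC and COP/NFOL. In cells with astrocyte markers, requiring 2 markers in place of 3 moved Gstm7 from 131 to 191 CPM. It moved Mgst3 from 54.7 to 84.9 CPM and Gsta4 from 30.1 to 11.1 CPM. Levels resting on under 10 UMIs, in OPC and COP/NFOL above all, are limited by depth.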

Other observations

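Genes around the transferases were also compared between stages. Of the NRF2 list, 4 of 6 genes at 50 CPM or more were over 2-fold higher in mature cells than in OPC and COP/NFOL, and none was over 2-fold lower. Log2 ratios were 2.34 (1.09 to 4.33) for Nfe2l2, which had only 4 UMIs in the early cells, 1.41 (0.84 to 2.09) for the transketolase gene Tkt, 1.06 (0.53 to 1.66) for the heme oxygenase gene Hmox2 and 1.02 (0.60 to 1.49) for Sqstm1. Of the peroxidase, thioredoxin and glutaredoxin list, 2 of 13 were over 2-fold higher in mature cells, Gpx4 at 1.95 (1.67 to 2.26) and the peroxiredoxin gene Prdx1 at 1.30 (1.05 to 1.56), and 2 were over 2-fold lower, Prdx2 at -2.09 (-2.33 to -1.87) and the glutaredoxin gene Glrx5 at -1.18 (-1.55 to -0.81). Of the glutathione synthesis list, 1 of 8 passed 2-fold, the cyclotransferase gene Ggct at 1.64 (0.64 to 3.01), with 7 UMIs in the early cells. Over all 2958 genes, 26.6% differed 2-fold in either direction.

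Prdx1, like Gstm5, Gstm7 and Mgst3, was highest in MOL2/4, with 1686 CPM (1561 to 1818). It was not 2-fold apart between MOL5/6 and MOL2, at a log2 ratio of -0.56. Prdx2 was highest in COP/NFOL, with 591 CPM (470 to 734), and had 407 CPM in OPC. COP/NFOL, a label of 19 cells, was also the highest for other list genes, Glrx5 and Esd among them. Gsto1 was highest there too, but 1 cell held 11 of its 22 UMIs in that label.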
